A study of Caenorhabditis elegans with 2 samples.

Results

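The bins described here are the 1 kb stretches of the Caenorhabditis elegans genome that carried little small RNA in the HRDE-1 pull-down and much in the wild-type library. Each library was scaled so that its bins sum to 1000000 (parts of that sum, ppm). The bins were chosen by their values in both libraries: at least 35 ppm in N2, and a coIP value of at most 0.25 of the N2 value. The rule took 794 of 100257 bins, and since both of its measures come from the libraries compared, the levels and ratios below describe the choice and do not test it. The study held 1 library of small RNA that came down with FLAG-StrepII-HRDE-1 (the coIP library) and 1 library of small RNA from strain N2, both from young adult hermaphrodites. The labels give 1 protocol text, that of the pull-down, for both libraries, and do not say how the N2 small RNA was obtained or which strain background carried the tagged protein. Both libraries were cloned by a method that does not need a 5′ monophosphate.

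HRDE-1 belongs to the Argonaute family and acts in the nuclei of the germline. Argonautes are loaded with small RNAs and find transcripts by base pairing, and worms have many of them, each with its own small RNA classes: microRNAs, piRNAs, the primary siRNAs that start a response and the secondary siRNAs that RNA-dependent RNA polymerases make afterwards. HRDE-1 carries secondary siRNAs into the nucleus, where they direct heritable silencing of transposons and other targets. N2 small RNA can hold every class that the cloning admits, along with pieces of abundant structural RNAs, and regions weak in the pull-down and strong in N2 are places whose small RNA made up little of what was cloned from the pull-down. The deposited bins carry no RNA class, length, strand or gene, and the class of these bins was not tested. In whole worms, fewer cells of a type and less RNA per cell cannot be told apart.

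The 794 bins were 41.8% of the 1901 bins that reached 35 ppm in N2, and 8.82% of all bins lay at or below the same ratio. They made up 0.792% of the bins and held 2.82% of the coIP signal (95% interval 2.80 to 2.83) against 70.3% of the N2 signal (70.3 to 70.4). Summed over the bins, the coIP was 25.2-fold lower than N2 (25.1 to 25.4, in read equivalents with the floor of the file removed). These intervals cover counting error only, since there is no replicate and no test between libraries. The other 1107 strong N2 bins, whose ratio was above 0.25, held 48.0% of the coIP signal and 11.7% of the N2 signal. Most of the wild-type small RNA signal lay in places that supplied little of the pull-down. Scaling by totals that leave these bins out would move every log2 ratio by 1.71 (the median over 52602 bins with reads in both libraries is -1.25 without them in the totals and 0.46 with them).

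**Figure D1:**
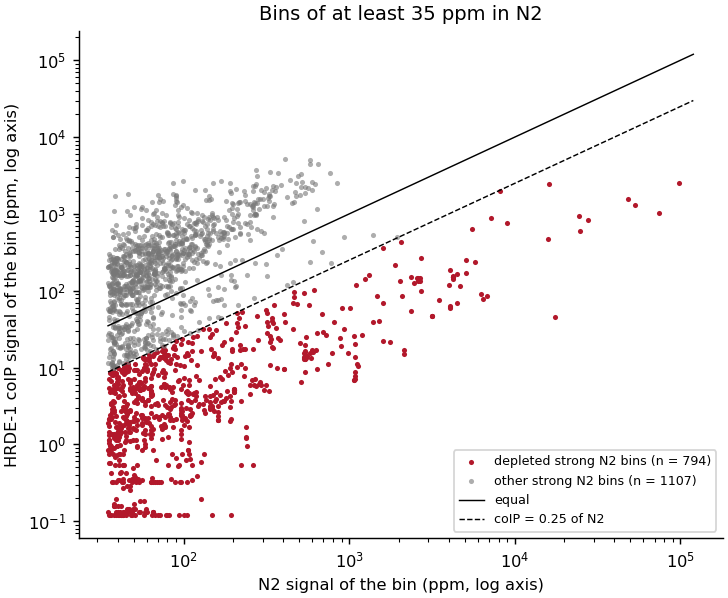
Signal of each of the 1901 bins of at least 35 ppm in N2, with the HRDE-1 coIP (vertical, ppm, log axis) against N2 (horizontal, ppm, log axis); red points are the 794 depleted bins and grey points the other 1107. All 54 bins above 2000 ppm in N2 lie under the dashed line of a ratio of 0.25. No bin exceeded 5269 ppm in the coIP, so the very strongest N2 bins had to lie there.

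A few bins carried most of this signal. The 10 strongest held 1.17% of the coIP and 40.2% of N2, and the 100 strongest held 2.33% and 62.6% in the same order. Without the 10 strongest, the other 784 bins held 1.64% of the coIP and 30.1% of N2, an 18.6-fold difference (18.4 to 18.7). The share of strong bins that were depleted differed by N2 level. It was 39.7% of the 557 bins at 35 to 50 ppm, 35.2% of the 731 at 50 to 100 ppm, 40.1% of the 297 at 100 to 200 ppm and 43.8% of those at 200 to 500 ppm. Above that it was 67.6% of the 68 bins at 500 to 1000 ppm, 92.0% of the 25 at 1000 to 2000 ppm and 54 of the 54 at 2000 ppm or more. The rule has a part in this, since N2 is the divisor of the ratio. No bin exceeded 5269 ppm in the coIP, so the very strongest N2 bins could not miss the ratio limit. The 2 bins above 1000 ppm in N2 that the rule left out were II:11537001-11538000 and IV:11026001-11027000, with 530.3 and 507.3 ppm in the coIP against 1394 and 1948 ppm in N2, at ratios of 0.380 and 0.260; they were singled out after their values were seen.

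The strongest bin was III:8865001-8866000, in the positions of the file, with 2502 ppm in the coIP against 98583 ppm in N2, or 9.86% of the N2 library. Its value was 39.4-fold lower in the coIP, with a counting interval of 39.0 to 40.4. The bin 2 kb away, III:8867001-8868000, had 183.9 ppm in the coIP against 4078 ppm in N2. The bin between them was not among the depleted bins. The next strongest, V:14364001-14365000, had 1034 ppm in the coIP against 74539 ppm in N2, 72.1-fold lower. The third strongest, III:2173001-2174000, and its neighbour III:2172001-2173000 had 1309 and 596.8 ppm in the coIP against 53492 and 24727 ppm in N2. Their ratios, 0.0245 and 0.0241, had counting intervals that overlap (0.0237 to 0.0249 and 0.0231 to 0.0249).

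The strongest bins of the other chromosomes were told apart more by their level than by their ratio, with the exception of II. On IV the bin 14033001-14034000 had 1557 ppm in the coIP against 48341 ppm in N2. On I the bin 9379001-9380000 had 837.5 ppm in the coIP against 27882 ppm in N2. On X the bin 13144001-13145000 had 951.0 ppm in the coIP against 24621 ppm in N2. These 3 bins were 31.1-fold, 33.3-fold and 25.9-fold lower in the coIP, a narrow span beside that of the whole set. On II no bin came near that level: its strongest, 8393001-8394000, had 77.2 ppm in the coIP against 6416 ppm in N2, 83.1-fold lower.

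Among the 15 strongest bins the ratio varied far more. The lowest was IV:9511001-9512000, with 45.9 ppm in the coIP against 17644 ppm in N2, 384.4-fold lower (340.5 to 444.8). The highest was IV:7256001-7257000, with 1998 ppm in the coIP against 8126 ppm in N2, a ratio of 0.246 (0.2381 to 0.2502) close to the limit of the rule. These bins lie on the same chromosome and held 99.9% and 99.8% of the N2 signal of the 5 kb around them, and they differed in ratio by far more than counting error. IV:3233001-3234000 was 6.63-fold lower, with 2432 ppm in the coIP against 16127 ppm in N2. A pair on X lay 4 bins apart and had similar levels. X:2431001-2432000 had 773.1 ppm in the coIP against 8987 ppm in N2, and X:2435001-2436000 had 897.8 ppm in the coIP against 7173 ppm in N2. They were 11.6-fold (11.3 to 12.1) and 7.99-fold (7.79 to 8.33) lower in the coIP, a difference beyond counting error. The remaining 2 of the 15, V:6665001-6666000 and IV:12787001-12788000, had 476.8 and 85.5 ppm in the coIP against 15972 and 6818 ppm in N2, at ratios of 0.0299 and 0.0125.

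Over all 794 bins the median was 4.72 ppm in the coIP (range 0.121 to 2502) and 76.5 ppm in N2 (35.05 to 98583). The median log2 ratio of coIP over N2 was -4.80, with quartiles of -5.73 and -3.41. Ratios at or below 0.01 were found in 133 bins, from 0.01 to 0.02 in 74, from 0.02 to 0.05 in 268, from 0.05 to 0.1 in 131 and from 0.1 to 0.25 in 188. The bins at 0.02 to 0.05 held 41.6% of the N2 library, more than the other classes together. In 29 bins the coIP was at the floor of the file, that is, without a read, and in 127 it had fewer than 3 reads. Depth sets the limit there: a coIP value of 0 reads allows up to 3.

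The 5 lowest ratios all came from bins without a coIP read. The lowest was IV:5165001-5166000 with 194.6 ppm or 428.7 read equivalents in N2, at least 319.5-fold lower in the coIP when 3 reads are allowed. The others were I:10812001-10813000, I:10708001-10709000, III:8265001-8266000 and II:5758001-5759000, at least 242.6-fold, 172.9-fold, 166.2-fold and 153.5-fold lower. None of these bins is among the 15 strongest, and their order follows the N2 reads alone.

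The limits of the rule cut through a continuous range. The last bins inside the N2 limit had 35.05, 35.11 and 35.13 ppm in N2, and the first ones outside, which also met the ratio, had 34.97, 34.89 and 34.81 ppm. The last ratios inside were 0.2496, 0.2478 and 0.2474, and the first outside were 0.2506, 0.2517 and 0.2544. Beyond the ratio limit, 122 of the 1901 strong bins had a ratio between 0.25 and 0.5.

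The depleted bins were narrow peaks in N2. A bin's share of the 5 kb window centred on it would be 100% for a lone spike and 20% for an even spread. In N2 the median share was 80.8% (76.6 to 84.5) for the depleted bins, 43.4% (41.6 to 45.7) for the other strong bins, 41.5% for the 239 balanced bins (ratio 0.5 to 2) and 45.0% for the 427 bins at least 4-fold higher in the coIP. A share of at least 90% was reached by 302 of 794 depleted bins (38.0%) and 71 of 1107 others (6.41%). Under 50% were 183 (23.0%) and 631 (57.0%). The interval of a median takes bins as independent, and with 1 library per group there is no test.

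**Figure D2:**
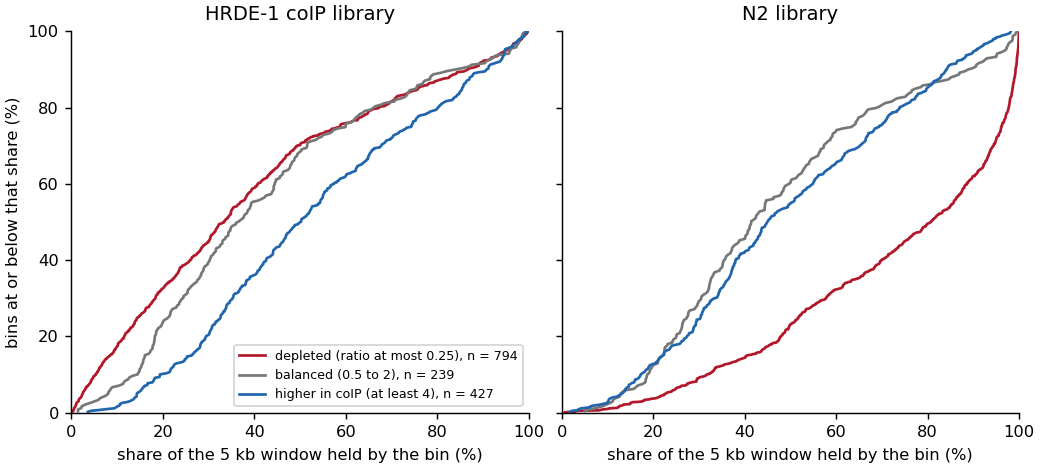
Cumulative share of bins (vertical, percent) by the share of the 5 kb window that the bin held (horizontal, percent), in the HRDE-1 coIP at left and in N2 at right, for depleted, balanced and higher strong N2 bins. The curves of depleted bins run apart from both others in N2, with a median of 80.8%, and near the balanced bins in the coIP, with a median of 33.3%.

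Level and shape went together, so the comparison was made within N2 levels as well. At 35 to 50 ppm the median share of the N2 window was 67.9% for depleted and 38.9% for other strong bins. At 50 to 100 ppm it was 74.8% and 41.4%, at 100 to 200 ppm 88.9% and 46.4%, and at 200 ppm or more 97.6% and 66.9%. The depleted bins had the higher median share at every level, and the share rose with the level in both sets. A bin's own N2 value is part of its window, so a higher level raises this share by itself.

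In the coIP the same places were less peaked. The median share of the coIP window was 33.3% (30.5 to 35.3) for depleted and 41.6% (39.4 to 44.2) for other strong bins, and a rule that asks for a low coIP value lowers this share by itself. A bin was the highest of its 5 in the coIP for 365 of the 794 depleted bins (46.0%) and in N2 for 658 (82.9%). The coIP peak was clearer where N2 was strongest: the median coIP share was 23.6% at 35 to 50 ppm in N2, 45.0% at 200 to 500 ppm and 85.6% at 2000 ppm or more. V:14364001-14365000 held 97.6% of its window in the coIP and 99.9% in N2, and X:13144001-13145000 held 99.9% and nearly all. At these strongest places the coIP kept the position of the N2 peak at a lower height.

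The neighbouring bins were not lower in the coIP to the same degree. For 537 depleted bins with no other strong N2 bin within 2 kb on either side, the 4 flanking bins together had a median of 4.86 ppm in the coIP against 7.69 ppm in N2. Their median ratio was 0.871 (0.749 to 1.02), against 0.0344 for the bins themselves, a value limited by the rule. The median ratio of single bins over the whole genome was 0.883, so the flanks were near that level. Flank ratios of at most 0.25 were found for 105 of 537 (19.6%) and above 1 for 250 (46.6%). The flanks of 137 isolated bins higher in the coIP had a median ratio of 4.99 (4.56 to 5.87), close to the 6.24 of those bins. That the flanks hold no strong N2 bin was part of this choice, which limits N2 and not the coIP there.

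**Figure D3:**
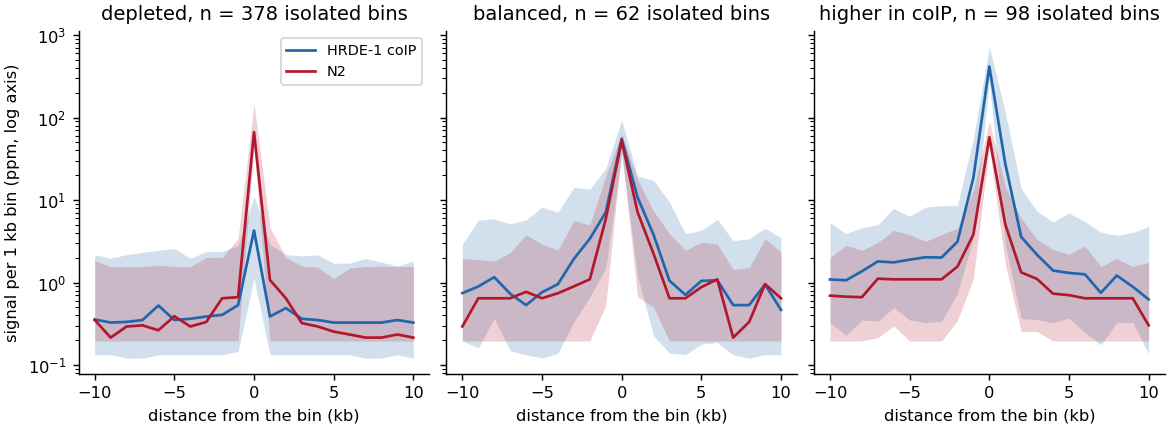
Median signal per 1 kb bin (vertical, ppm, log axis; bands from the lower to the upper quartile) against distance from the bin (horizontal, kb), in the coIP (blue) and N2 (red), for 378 depleted, 62 balanced and 98 higher bins with no other strong N2 bin within 10 kb. The signal of the depleted bins, at a median of 4.28 ppm in the coIP against 66.7 ppm in N2, is down to 0.387 ppm in the coIP against 1.07 ppm in N2 in the next bin on the right.

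Bins higher in the coIP were near some depleted bins. A bin at least 4-fold higher, with 35 ppm or more in the coIP, lay within 5 kb of 138 depleted bins (17.4%), 82 balanced bins (34.3%) and 675 of all other strong bins (61.0%). The last share includes the 427 higher bins, at 86.2%. The share over all bins was not counted, so these values are not set against the genome. X:16604001-16605000 is a depleted bin with such a neighbour: it had 13.2 ppm in the coIP against 538.7 ppm in N2, while a bin within 2 kb had 2116 ppm in the coIP. It held 0.617% of its coIP window and 72.0% of its N2 window.

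Most depleted bins stood by themselves. The 794 bins formed 694 runs of adjacent bins, of which 623 (89.8%) were single, 55 were pairs and 16 were longer. The other strong bins formed 709 runs, of which 469 (66.1%) were single. With members joined across gaps of up to 20 kb, 373 depleted bins (47.0%) had no other member near them, against 275 (24.8%) of the other strong bins by the same count.

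The longest run was V:17117001-17127000, 10 bins with 1324 ppm in the coIP against 36548 ppm in N2, 27.8-fold lower (27.1 to 28.6). The next was V:17128001-17133000, 5 bins, with 672.2 ppm in the coIP against 17091 ppm in N2, 25.6-fold lower (24.7 to 26.6). With the single bin V:17115001-17116000 these runs make a cluster of 16 members in 18 kb, which held 0.213% of the coIP and 5.63% of N2. The gap between the runs, V:17127001-17128000, was higher in the coIP, with 47.6 ppm in the coIP against 10.7 ppm in N2. Beyond the right end of the cluster the adjacent bin had 174.1 ppm in the coIP against 47.3 ppm in N2, a ratio of 3.68 beside the 0.0432 of the last bin of the run.

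The other long runs were weak. The run I:14857001-14862000 of 5 bins had 38.9 ppm in the coIP against 214.5 ppm in N2. The run III:2426001-2430000 of 4 bins had 34.6 ppm in the coIP against 490.3 ppm in N2. The run X:16271001-16275000 of 4 bins had 17.5 ppm in the coIP against 334.2 ppm in N2. They were 5.62-fold (4.74 to 6.71), 14.4-fold (12.3 to 17.1) and 19.7-fold (15.8 to 25.1) lower. The X run was part of the cluster with the second most members, 9 in 30 kb.

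The bins with the smallest share of their own N2 window lay beside much stronger ones. V:17119001-17120000 held 0.730%, inside the cluster on V, with 7.85 ppm in the coIP against 119.5 ppm in N2. III:8867001-8868000, 2 kb from the strongest bin, held 3.97%. V:5586001-5587000, II:13835001-13836000 and X:14478001-14479000 held 2.93%, 3.00% and 8.28%, next to bins of 1478, 2064 and 781.6 ppm in N2. Each of the 5 had a stronger bin within 2 kb.

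Chromosomes X and IV held more of the depleted bins than their length would give, and X held fewer of the other strong bins. X has 17.7% of all bins, 168 (21.2%) of the depleted bins and 11.3% of the other strong bins. Chromosome IV had 163 (20.5%), V 126 (15.9%), III 114 (14.4%), I 112 (14.1%) and II 111 (13.98%). Of all bins IV has 17.4%, V 20.9%, III 13.7%, I 15.0% and II 15.2%. Depleted bins per Mb were 9.48 on X and 9.32 on IV, and IV held 18.0% of the other strong bins. Of the strong N2 bins on X, 57.3% were depleted (51.5 to 63.1), against 38.9% on the autosomes (36.5 to 41.4). These intervals take bins as independent, although some lie in clusters. In the centre of X 72 of 91 strong bins were depleted (79.1%), against 46.2% of the 584 in the centres of the autosomes.

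**Figure D4:**
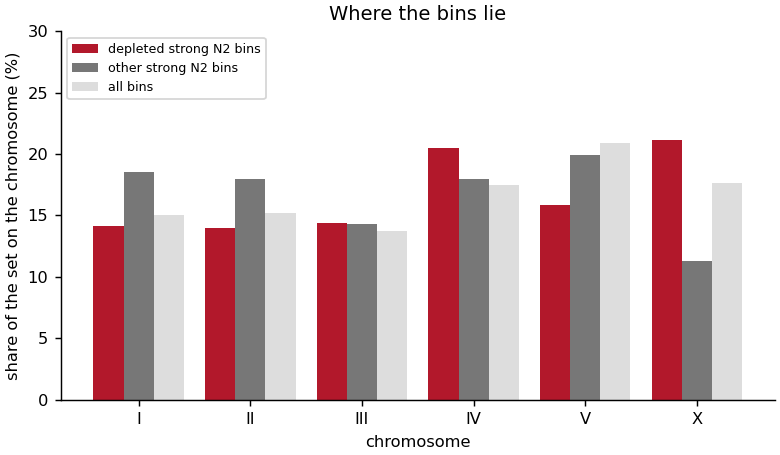
Share of each set of bins (vertical, percent, from 0) on each chromosome (horizontal), for 794 depleted strong N2 bins (red), 1107 other strong N2 bins (dark grey) and all bins (light grey). X holds 21.2% of the depleted bins and 11.3% of the other strong bins.

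The signal of the bins was spread otherwise than their number. They held 0.627% of the coIP and 20.8% of N2 on III, 0.540% and 16.97% on V, 0.772% and 15.1% on IV, and 0.446% and 8.77% on X. On I and II they held 0.199% and 0.234% of the coIP and 4.66% and 3.97% of N2. Within the chromosomes they took from 1.03% of the coIP signal of I to 4.67% of that of IV, against 42.5% of the N2 signal of II to 82.5% of that of III. With the depleted bins left out of both libraries, III held 14.2% of the coIP and 14.9% of N2, against 14.4% and 25.3% with them, and V held 15.3% and 16.9%, against 15.4% and 22.0%. Differences remained on X, with 15.0% of the remaining coIP and 10.5% of the remaining N2 signal, and the other way on IV, with 16.2% and 20.2%.

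Chromosome arms, taken as the outer 30% at either end, held 452 of the depleted bins (56.9%, 53.4 to 60.4), where they contain 60.0% of all bins. With 1 bin counted per run the share was 53.5% (49.7 to 57.2). They held 69.9% (67.1 to 72.6) of the other strong bins and 76.6% of those at least 4-fold higher in the coIP. The interval for all depleted bins reaches the share of the genome and that for 1 bin per run lies below it, while the other strong bins lay above it. These intervals take bins as independent, although some lie in clusters, and they are not a test. With arms as the outer 20%, they held 34.4% of the depleted bins (31.1 to 37.8), 47.6% of the other strong bins and 40.0% of all bins. The sides were not alike: 174 bins lay in left arms and 278 in right arms, against 364 and 410 of the other strong bins. Of the strong N2 bins on I, 11 of 72 in the left arm were depleted and 54 of 144 in the right. On V these were 18 of 77 and 61 of 161, with 16 of the 61 in the cluster described above. On X they were 36 of 104 and 60 of 98, and on II 27 of 107 and 30 of 103. On III they were 31 of 66 and 23 of 74, and on IV 51 of 112 and 50 of 108.

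Position changed with the ratio. Of the 133 bins at a ratio of at most 0.01, 57 lay in arms (42.9%), 41 on IV (30.8%) and 10 on X (7.52%). Of the 268 bins at 0.02 to 0.05, 159 lay in arms (59.3%), 51 on IV (19.0%) and 88 on X (32.8%). Of all the ratio classes, the lowest one had the smallest share in arms and on X, and the middle one the largest share on X. The other classes had 55.4%, 64.9% and 58.5% in arms, from the lower to the higher ratios. On IV they had 32.4% at 0.01 to 0.02, 9.92% at 0.05 to 0.1 and 18.1% at 0.1 to 0.25, so that share did not change steadily with the ratio. The median N2 level was 57.3 ppm in the lowest class and 106.8 ppm in the middle one. How far that difference in level bears on position was not tested.

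None of the 794 depleted bins carried either of the authors' marks, GRTS or GRH, which the deposited table gives without definition; 0 of 794 allows a share of up to 0.378%, by a limit of 3 counts. In the literature on nuclear RNAi these letters name regions where germline nuclear RNAi silences transcription (GRTS) or deposits heterochromatin (GRH). Of the other strong bins 171 carried at least 1 mark (15.4%), as did 22 of the 239 balanced ones (9.21%) and 67 of the 427 higher ones (15.7%). Over the genome 381 bins (0.380%) were marked. In the authors' deposited table every one of the 794 bins had a p-value of 0 as rounded there, against 1010 of the 1107 other strong bins and 12.9% of all bins. These p-values come from the contrast that chose the bins.

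Near-equal values recurred among the bins. A partner was another depleted bin within 1% in both libraries. It was found for 92 of the 794 bins (11.6%, 9.44 to 14.02), which formed 37 sets, 29 of them across chromosomes. Of the other strong bins 75 of 1107 had one (6.78%). Matched within their own class, these were 32 of the 319 bins at ratios of 2 to 4 (10.0%, 6.96 to 13.9). They were 6.69% of the 239 balanced and 5.85% of the 427 higher bins. The weakest sets include bins at the coIP floor. At 200 ppm or more in N2, 38 of 197 depleted bins (19.3%, 14.03 to 25.5) and 4 of 119 other strong bins (3.36%, 0.923 to 8.38) had a partner. Within the class at ratios of 2 to 4 it was 4 of 32 (12.5%, 3.51 to 29.0), an interval that overlaps that of the depleted bins. It was 0 of 16 balanced and 0 of 61 higher bins. Matches by chance rise with the number of bins searched, and these classes were smaller than the depleted set.

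The largest set was the 6 bins of the cluster on V at 17123001-17126000 and 17129001-17132000, with 151.7 to 154.1 ppm in the coIP against 4267.9 to 4268.3 ppm in N2. Their N2 values were within 0.00961% of each other and their coIP values within 1.53%. The other members of the cluster ran from 119.5 to 5776 ppm in N2. One of them, V:17118001-17119000, was within 1% of that level in N2 but not in the coIP, with 142.3 ppm in the coIP against 4232 ppm in N2. Whether these bins are copies of a repeat, and how reads with several mapping sites were counted, is not stated in the sources and was not tested.

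The most frequent level was not in 1 place. Of the 197 depleted bins of at least 200 ppm, 17 had N2 values from 537.5 to 541.4 ppm, 8 on X, 5 on IV and 4 on V, with 8.68 to 19.6 ppm in the coIP. Of the 5 largest near-equal sets, 3 lie at or beside this level. One set of 5 joined IV:683001-684000, V:16648001-16649000, X:489001-490000, X:2227001-2228000 and X:16604001-16605000 at 13.1 to 13.2 ppm in the coIP against 537.5 to 540.9 ppm in N2. Another set of 5 joined IV:1514001-1515000, X:2553001-2554000, X:8149001-8150000 and the adjacent X:16617001-16618000 and X:16618001-16619000, at 13.6 to 13.9 ppm in the coIP against 534.0 to 540.9 ppm in N2. A set of 3 joined V:16640001-16641000, V:16645001-16646000 and X:16619001-16620000 at 13.30 to 13.35 ppm in the coIP against 537.8 to 539.3 ppm in N2. The 3 bins on V near 16640001 lie within 10 kb of each other, and the 3 bins on X from 16617001 to 16620000 are adjacent.

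Other levels recurred too. A further 9 depleted bins had 4.83 to 5.24 ppm in the coIP against 202.1 to 202.6 ppm in N2, on III, IV and V, and 3 of them (III:9447001-9448000, III:9449001-9450000 and V:859001-860000) form the fifth set, at 5.01 to 5.03 ppm in the coIP. On IV the bins 13440001-13441000 and 13443001-13444000 had equal values to the last deposited digit, 9.58 ppm in the coIP against 404.0 ppm in N2, close to 2 times that level. Within 1% of 2 times the most frequent level (1077 ppm) lay 8 depleted bins. There the coIP was not higher: its median was 8.16 ppm, against 13.6 ppm within 1% of the most frequent level. Within 1% of 3 and 4 times that level lay 3 and 2 depleted bins, with higher coIP medians of 69.7 and 15.8 ppm. X:8796001-8797000 and X:13121001-13122000 both had 6.88 ppm in the coIP, against 1078 and 1077 ppm in N2, so their ratio was 0.00639, against 0.0243 to 0.0258 in the 13 bins of the sets just described. Near the top, IV:9444001-9445000 and IV:9464001-9465000 had 62.2 and 62.4 ppm in the coIP against 4096 and 4097 ppm in N2, and IV:8994001-8995000 came close with 60.5 ppm in the coIP against 4085 ppm in N2. These pairs and levels were singled out after their values were seen.

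**Figure D5:**
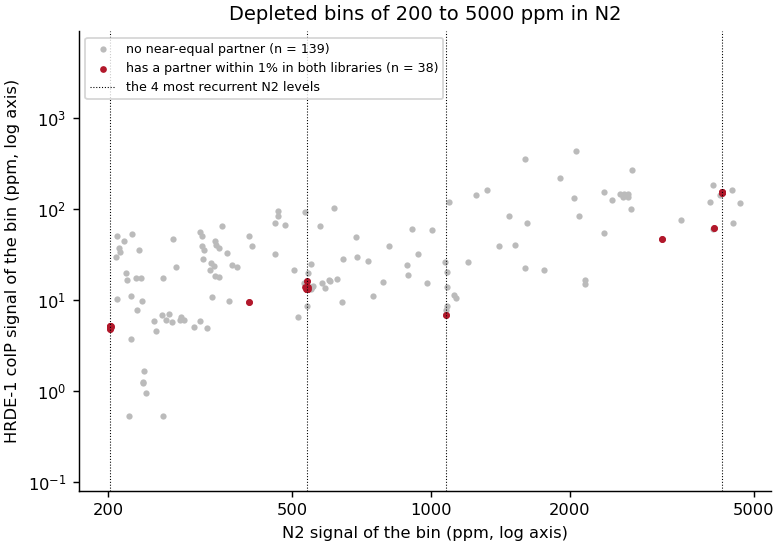
The 177 depleted bins of 200 to 5000 ppm in N2, with the coIP (vertical, ppm, log axis) against N2 (horizontal, ppm, log axis); red bins have a partner within 1% in both libraries, grey bins have none, and dotted lines mark the 4 most recurrent N2 levels. Red points fall on top of one another at 537.5 to 541.4 ppm and at 4268 ppm.

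The share of bins with whole reads differed as well. Among depleted bins with deposited N2 values up to 150, 208 of 640 (32.5%, 28.9 to 36.3) held a whole number of reads within the rounding of the file, against 428 of 1046 (40.9%, 37.9 to 44.0) of the other strong bins. Over all bins with a read the share was 54.1%, above both sets of strong bins, and rounding alone would make 4.74% look whole. Among depleted bins the share fell with the N2 level. It was 36.7% at 35 to 50 ppm, 32.3% at 50 to 100, 29.4% at 100 to 200 and 20.9% above that. The median N2 level was 76.5 ppm for depleted, 65.5 ppm for other strong and 0.273 ppm for all bins, so these sets differ in level. How far level bears on the shares was not tested. On X 19 of 134 depleted bins were whole (14.2%, 8.76 to 21.3), against 189 of 506 on the autosomes (37.4%, 33.1 to 41.7), while the other strong bins of X were whole in 43 of 122 cases (35.2%, 26.8 to 44.4). By ratio, 54.8% of the bins at or below 0.01 were whole, close to the share over all bins. It was 38.8% from 0.01 to 0.02, 19.1% from 0.02 to 0.05, 18.9% from 0.05 to 0.1 and 38.9% from 0.1 to 0.25. What the fractions come from was not tested.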

How the data were processed

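Small RNA of young adult hermaphrodites was measured in 1 HRDE-1 coIP library and 1 N2 library. The submitters' processing notes name Bowtie 0.12.7. No source used here gives the build, the read filters, how multiply mapping reads were treated or the total used for scaling. Per the file headers, the deposited table gives a coverage signal per 1 kb bin, the authors' p-value per bin and the GRTS and GRH marks. The values show a floor of 0.1 and p-values of at most 2 decimals. By the smallest steps of the values, 1 read was worth 0.1689 in the coIP and 0.2323 in N2, which makes 4832736 read equivalents in the coIP and 2161948 in N2. Many are fractions, and for the intervals of signal shares and ratios they were rounded and treated as counts. The last bin of V ends at 20920000 and the last gene of V in WBcel235 at 20922732. The build was therefore not matched to that reference, and positions are those of the file, without genes or sequences.

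Columns were scaled to 1000000 of their sums with Python 3.11.15, numpy 2.4.6, pandas 2.3.3 and scipy 1.17.1. With 1 library per group no p-value was computed. Intervals (95%) are exact binomial for shares and ratios and come from order statistics for medians. Those of signal shares and of ratios treat read equivalents as counts. Those of shares of bins and of medians take bins as independent, although some bins lie in clusters or near-equal sets. Folds and ratios of single bins come from ppm values with the floor included, except where 3 reads are allowed. Folds of summed bins come from read equivalents with the floor removed. The counting intervals of both are for read equivalents with the floor removed, so a single-bin value is not exactly the centre of its interval. The members, lists and comparisons were chosen with earlier results of these data known. Named bins were the 15 strongest in N2, the 5 lowest ratios, the strongest of each chromosome, the 5 lowest window shares, the 5 largest near-equal sets, the 5 longest runs and the 3 bins nearest to each limit on either side. Marked bins would have been named too, and there were 0. A near-equal set joins bins through partners, so its ends can differ by more than 1%. The selection, runs, near-equal sets and read values were tested on simulated data. Scaling, floor, limits, window, arms and tolerance were varied.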

Additional observations from a re-analysis of the deposited data

How the results depend on the processing

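The 794 bins became 1347 with column sums that leave out the 10 highest bins of either library, 427 with an N2 minimum of 70 ppm and 1211 with a minimum of 20 ppm; the other settings gave 652 to 916. Their share of the coIP and of N2 was 3.05% and 71.1% when scaled by the median of ratios, 3.27% and 72.6% without the 10 highest bins in the sums, 2.85% and 71.8% with the floor subtracted, 2.69% and 68.6% at 70 ppm, and 2.88% and 71.4% at 20 ppm. It was 1.95% and 65.4% at the stricter ratio limit, 3.31% and 71.76% at a limit of 0.5, 1.64% and 30.1% without the 10 strongest members, and 2.61% and 64.7% without the largest cluster. The median log2 ratio was -5.09 with the median of ratios, -5.23 without the 10 highest bins in the sums, -4.97 at 70 ppm, -5.19 at the stricter ratio limit and -4.47 at a limit of 0.5. The median share of the N2 window was 71.0% without the 10 highest bins in the sums, 91.9% at 70 ppm, 73.9% at 20 ppm, 91.7% with a window of 3 bins, 62.0% with 11 bins, 86.4% with 1 bin per run and 97.6% for members of at least 200 ppm. The share in arms was 52.3% without the 10 highest bins in the sums, 53.3% at 20 ppm and 34.4% with arms as the outer 20%, which hold 40.0% of all bins. The share with a near-equal partner was 14.9% without the 10 highest bins in the sums, 16.5% at 20 ppm, 5.67% with tolerances of 0.2% in N2 and 1% in the coIP, 23.4% with 1% and 5%, and 19.3% for members of at least 200 ppm. For each of these the cause was not tested. The first 2 scalings multiply every ratio by 0.726 and 0.625, so they could not bring a member past the ratio limit; with the floor subtracted the median factor was 0.969. The settings for members of at least 200 ppm and without the largest cluster were chosen after seeing the data. Depth limits the lowest ratios: 127 members had under 3 coIP reads. No paired analysis was possible because there is a single library of either kind.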
